A study of Mytilus galloprovincialis with 16 samples.

Results

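The digestive gland of male mussels (Mytilus galloprovincialis) was compared between stage 4 and stage 3 of gonad development. Its samples were the male channels of 8 two-colour cDNA arrays, chosen by the sex, the dye and the stage in the labels: 4 stage 4 males and 4 stage 3 males of the 16 males and 32 channels of the series. Every animal was a single wild individual from the Bizerta lagoon in Tunisia. Stage 4 animals were taken in March and stage 3 animals in February, and a difference of stage cannot be told apart from one of month. The study names stage 4 spawning, and stage 3 is called ripe in one passage and developing in another. The gonad lies in the mantle, and the stage was read there by histology, whereas RNA came from the digestive gland. On each array the male was hybridised together with 1 female of the same stage. Males carried Cy5 on replicates 1 and 3 and Cy3 on replicates 2 and 4 of both stages.

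The digestive gland of a bivalve takes up and digests food particles and stores reserves. During the gonad cycle these reserves are drawn on while gametes ripen, and spawning releases the gametes into the water. The arrays carried 1920 cDNA clones in 2 spots each. No source used here links a clone to a gene or a sequence, so that clones go by their identifiers and the markers of digestive or other cells could not be read.

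All values below are log2 signals of the male channel after background correction and normalisation, with both spots of a clone averaged. Stage 4 replicates 2 and 4 were counted as 1 male. Their difference varied 0.216 times as much as their duplicate spots would give, whereas this figure was 1.55 to 5.37 in each of the 27 remaining pairs of male channels, and the deviations of single spots correlated between them at r = 0.789, against at most 0.0901 for the other pairs. The comparison therefore rests on 3 stage 4 males and 4 stage 3 males. P-values measure the spread between these samples, of which each lay on 1 array and the averaged male on 2, and the number of arrays limits the precision. Differences are stage 4 minus stage 3.

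A pair of males stood apart before any comparison between the stages. The averaged stage 4 male correlated with stage 3 replicates 1 to 3 at r = 0.912 to 0.936 over all clones and with both other stage 4 males at r = 0.877 and 0.881. In the log2 ratio of male over female, its arrays correlated with those of stage 3 replicates 1 to 3 at r = 0.745 to 0.889, and with the other stage 4 arrays at r = -0.15 and -0.11. The male of stage 3 replicate 4 correlated with the other stage 3 males at r = 0.773 to 0.827, and its duplicate spots at r = 0.790, against 0.907 to 0.979 on the other arrays. With stage 4 replicates 1 and 3 this male had r = 0.853 and 0.831, and with the averaged stage 4 male 0.802. In the log2 ratio its array had r = -0.018 to 0.119 with stage 3 replicates 1 to 3. With stage 4 replicate 1, the averaged replicate and replicate 3 that r was 0.226, 0.102 and 0.046. Clones on an array share its label, its noise and its scaling, so that these correlations describe the arrays. Stage 4 replicates 1 and 3 had the highest r of all pairs of males (0.941), close to that of stage 3 replicates 2 and 3 (0.940). The pairs within stage 4 and within stage 3 overlapped with the 12 pairs between the stages, whose r ran between 0.802 and 0.936. The arrays of the averaged stage 4 male thus followed stage 3 arrays rather than those that share their label. Stage 3 replicate 4 was closer in male signal to stage 4 replicates 1 and 3 than to the other stage 3 males. Whether the stage labels of these arrays are right was not tested, and every difference between the stages takes the labels as given. The counts of calls and the named clones other than Myt01-001C09 are given with and without each of these males. Without the averaged stage 4 male, no male labelled with Cy3 is left at stage 4. Since the dye is in the model, the fitted difference is then the one within Cy5 males. The Cy3 males of stage 3 then bear on the spread only.

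**Figure D1:**
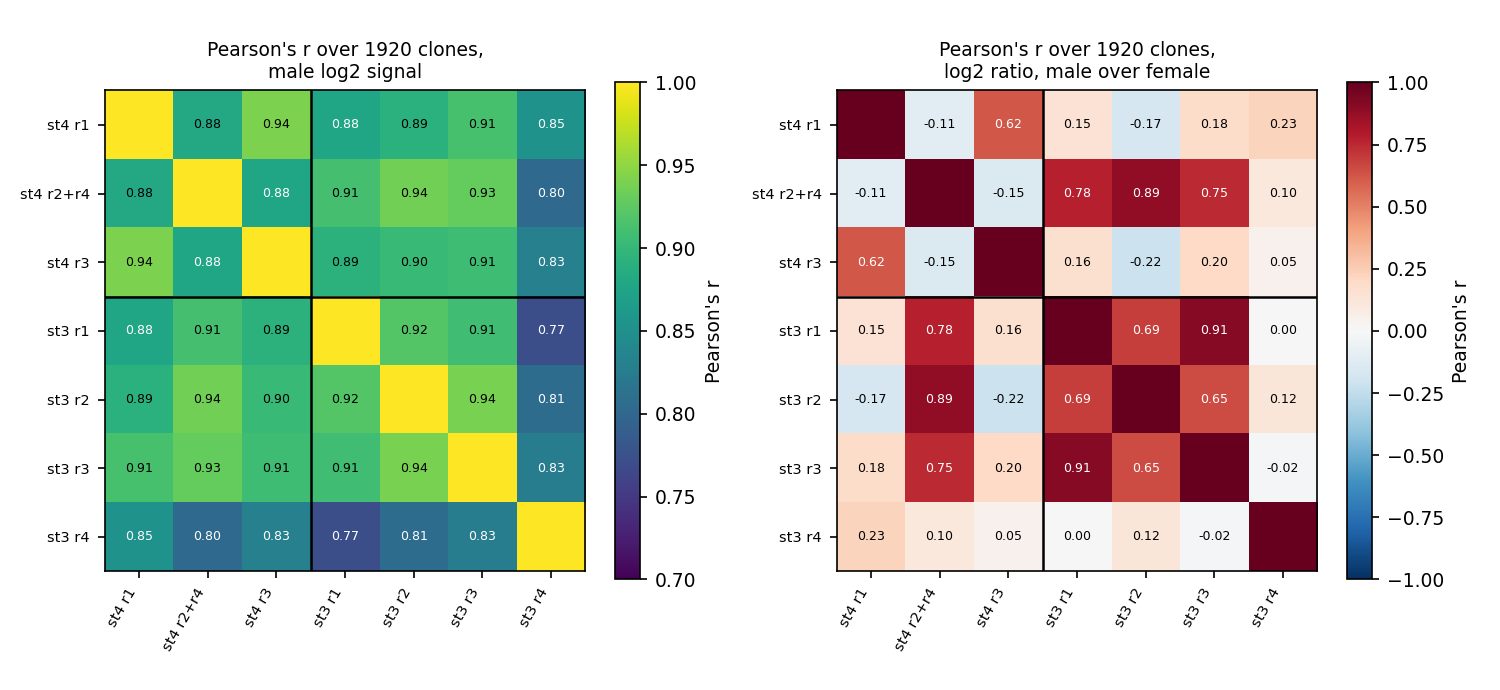
Pearson's r over 1920 clones between the arrays, for the male log2 signal (left) and for the log2 ratio of male over female (right); stage 4 arrays come before stage 3 arrays, and black lines divide the stages. The averaged stage 4 replicate resembles stage 3 replicates 1 to 3 (ratio r = 0.745 to 0.889) more than the other stage 4 arrays (r = -0.15 and -0.11).

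Similar numbers of clones could be read in both stages. A spot passed as above background if its mean foreground lay more than 2 SDs over the background around it, and a clone passed if at least 1 of its spots did. Stage 4 males had 755, 872, 637 and 850 clones above background in replicates 1 to 4, and stage 3 males had 653, 810, 904 and 666. The counts of both stages overlapped. Of all clones, 397 were above background on all 8 male arrays, 806 on some of them and 717 on none. No clone was above background on all 4 arrays of one stage and on none of the other. At stage 4 alone, 115 clones were above background on some array, and at stage 3 alone 202. Counts of arrays here and below treat stage 4 replicates 2 and 4 as 2 arrays, though they were counted as 1 male. Stage 4 thus had 3 males in which a clone could be seen and stage 3 had 4, so that 115 and 202 are not on equal terms. Of the 202 clones, 155 were seen on 1 array only, and for 65 of them that array was stage 3 replicate 4.

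No clone was called different between stage 4 and stage 3 males. At an adjusted p under 0.05 (limma with Benjamini-Hochberg adjustment) 0 of 1920 clones passed, a share of 0%, and the smallest adjusted p was 0.994. Before adjustment, 46 clones (2.40%) had a p under 0.05, of which 19 (0.990%) were higher and 27 (1.41%) lower at stage 4. If no clone differed, 96 of 1920 would be expected, though clones on an array are not independent. Of the 46 clones, 23 were among the 397 above background on all 8 arrays, with 5 higher and 18 lower at stage 4. The shortfall from 96 thus lay mostly among the dimmer clones. A B statistic over 0, the criterion used in the study, was reached by 0 clones. Without the averaged stage 4 male, 0 clones were called and 120 of 1920 had an unadjusted p under 0.05 (smallest limma adjusted p = 0.296). Without stage 3 replicate 4, 0 were called and 135 of 1920 had an unadjusted p under 0.05 (smallest limma adjusted p = 0.334).

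The fitted differences were small for most clones. Their median was -0.01 on the log2 scale, from -1.30 to 1.44, and the middle 90% of the clones lay between -0.45 and 0.38. Among the 397 clones above background on all 8 arrays the median was -0.05 and the middle 90% lay between -0.57 and 0.42. The median standard error over all clones was 0.184. The 95% interval of the difference lay within 2-fold in either direction for 1499 clones, or 78.1%, and within 1.5-fold for 937. The intervals of the other 421 clones reached past 2-fold, and their change was not bounded to that size at this precision. Of the 397 clones above background throughout, 217 had an interval within 2-fold and 180 did not. The offset added before taking logarithms draws dim clones towards no difference: with an offset of 10 in place of 50, 1059 clones and 167 of the 397 had intervals within 2-fold. Without the averaged stage 4 male these counts were 1210 and 114, and without stage 3 replicate 4 they were 1565 and 235.

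**Figure D2:**
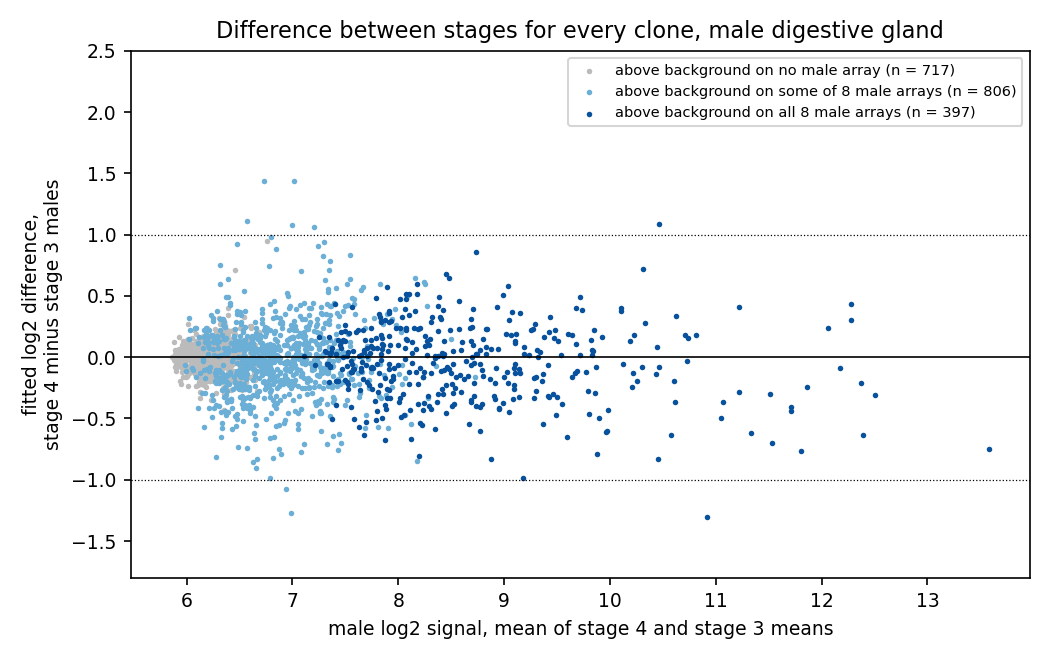
Fitted log2 difference (stage 4 minus stage 3 males) of every clone against its mean male log2 signal, coloured by the number of male arrays on which it was above background; dotted lines mark 2-fold. Of the 1920 clones, 9 lie outside these lines, and none passed the test.

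The largest fitted differences had large standard errors. A difference over 2-fold was fitted for 9 clones, with standard errors of 0.411 to 0.955, against a median of 0.184 over all clones, and a smallest limma adjusted p of 0.994. For 6 of these 9 clones the 2 spots lay over 2 log2 units apart on at least 1 male array, against 133 of all clones (6.93%). Clone Myt01-001C09, chosen after its values were seen, had a male log2 signal of 9.86, 7.23 and 6.21 in stage 4 replicate 1, the averaged male and replicate 3. Stage 3 males had 6.38, 6.16, 6.30 and 6.20. Only stage 4 replicate 1 stood far above all other males, and there the spots of the clone read 6.43 and 13.3. The clone was above background on 2 of 4 stage 4 arrays and on 0 of 4 stage 3 arrays. With its stage 3 values raised to the lowest signal above background, its mean was 2.37-fold higher at stage 4 under this background correction. Replicate 1 raised that mean, not all stage 4 arrays were above background, and the figure does not allow for the spread between males. The fitted log2 difference was 1.43 ± 0.84 (SE, limma adjusted p = 0.994). Without stage 4 replicate 1 the difference was 0.46. In the female of that array the clone read 10.1, against 6.01 to 6.74 in the females of the other arrays.

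The difference between the stages was also read within each dye. The Cy5 males were 2 at stage 4 (replicates 1 and 3) and 2 at stage 3, and the Cy3 males were the averaged male at stage 4 and 2 at stage 3. Within Cy5 males, 65 clones differed by over 2-fold in their means, 40 higher and 25 lower at stage 4. Within Cy3 males, 84 clones did, 33 higher and 51 lower. Only Myt01-001C09 did so in the same direction in both dyes, and 15 clones did so in opposite directions. Over all clones, 779 (40.6%) had the same sign within both dyes. For 42 of the 51 clones that were lower in the Cy3 male of stage 4, stage 3 replicate 4 lay over 2-fold above stage 3 replicate 2. The choice of the 51 used the mean of these stage 3 replicates, which favours clones high in replicate 4, so that this count is a description. The dye of the male and the averaged stage 4 replicate cannot be told apart within stage 4, since that replicate was its only Cy3 male.

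**Figure D3:**
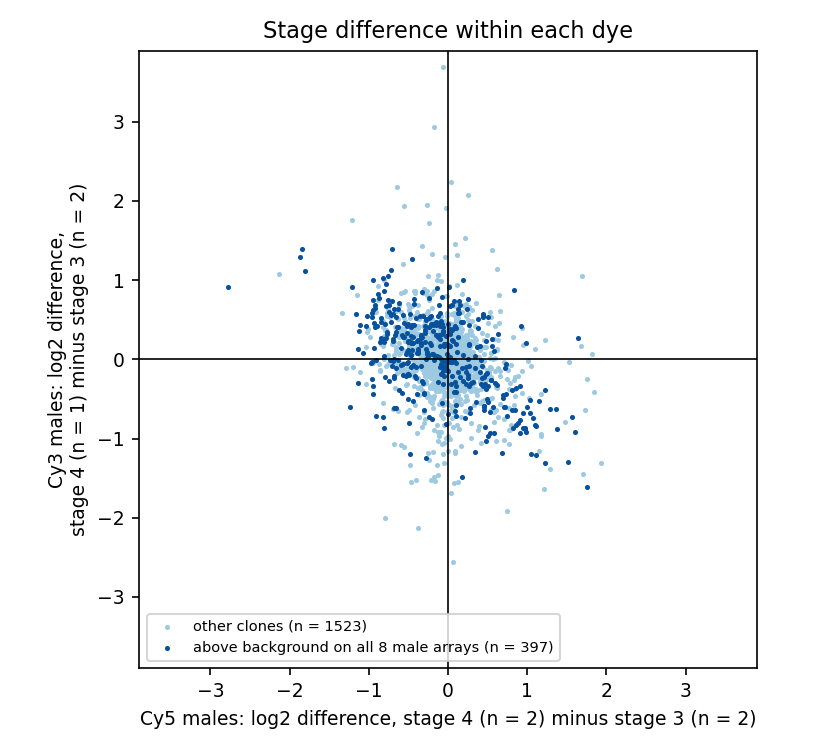
Log2 difference, stage 4 minus stage 3, of every clone among males labelled with Cy5 (horizontal axis) and among males labelled with Cy3 (vertical axis). In 779 of 1920 clones the sign is the same in both dyes, and 15 clones exceed 2-fold in both with opposite signs.

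The values of both stages did not overlap for 69 clones (3.59%), with 27 (1.41%) higher and 42 (2.19%) lower in every stage 4 male than in any stage 3 male. With so few males, values of the stages can separate by chance, and the number expected was not worked out, so that the 69 are no evidence of a change. Of the 69 clones, 7 higher and 11 lower also had an unadjusted p under 0.05 and were above background on some male array. The 7 clones had fitted differences of 0.32 to 0.54, and for 5 of them no stage 3 array was above background. The 11 clones had fitted differences of -0.83 to -0.38, and 7 of them were above background on all 8 arrays. In females, which lay on the same arrays, the difference had the same sign for all 7 higher clones (median 0.34) and for 8 of the 11 lower clones (median -0.41). Over all clones, 1386 of 1920 had the same sign in males and females, whose signals come from the same spots. The shared sign is therefore no separate evidence for these clones. None of the 18 was called, and the 2 with the largest difference in each direction are described next.

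Clone Myt01-006A11 had the largest difference among these 11 lower clones. Its male log2 signal was 9.72, 10.1 and 10.3 in stage 4 replicate 1, the averaged male and replicate 3, against 10.6, 10.8, 11.0 and 11.1 in stage 3 replicates 1 to 4. All 3 stage 4 males lay below all 4 stage 3 males, and the clone was above background on all 8 arrays. The 3 stage 4 males averaged 10.0 ± 0.28 and the 4 stage 3 males 10.9 ± 0.21 (SD). The fitted difference was -0.83 ± 0.18 (SE), or 1.78-fold lower at stage 4, with a 95% interval of -1.28 to -0.37 for the single clone and a limma adjusted p of 0.994. The difference was -0.81 within Cy5 males and -0.86 within Cy3 males. On the array of stage 4 replicate 2 its spots lay 2.25 log2 units apart. Without the averaged male the difference was the one within Cy5 males, -0.81 (limma adjusted p = 0.716). Without stage 3 replicate 4 it was -0.77 (limma adjusted p = 0.641).

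Females on the same arrays overlapped between the stages for Myt01-006A11. They had 10.7, 9.30 and 10.5 at stage 4 and 9.47, 9.95, 9.81 and 11.3 at stage 3. The female difference was 0.04 ± 0.57 (SE, limma adjusted p = 0.987). The male change minus the female change was -0.87 ± 0.55 (SE), with an interval of -2.22 to 0.48 and a limma adjusted p of 0.939, so that a difference between the sexes was not resolved.

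Clone Myt01-016E02 was next among the lower clones. Its male log2 signal was 7.61, 7.95 and 7.90 in stage 4 replicate 1, the averaged male and replicate 3, against 9.23, 8.33, 8.56 and 8.18 in stage 3 replicates 1 to 4. The stages did not overlap, but the lowest stage 3 male lay close to the highest stage 4 male, and stage 3 replicate 1 stood highest. The fitted difference was -0.80 ± 0.26 (SE), or 1.75-fold lower at stage 4, with an interval of -1.43 to -0.18 and a limma adjusted p of 0.994. Within Cy5 males it was -1.14 and within Cy3 males -0.30. Over the males left out one at a time it ran from -1.14 to -0.55. The -1.14 came without the averaged male and repeats the value within Cy5 males (limma adjusted p = 0.716). Without stage 3 replicate 4 the difference was -0.89 (limma adjusted p = 0.642). The male change minus the female change was -0.94 ± 0.62 (SE, limma adjusted p = 0.939).

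The 2 clones named among those higher at stage 4 were dim. Clone Myt01-011H01 had a male log2 signal of 6.68, 6.82 and 6.92 in stage 4 replicate 1, the averaged male and replicate 3, against 6.60, 6.49, 5.93 and 6.07 in stage 3 replicates 1 to 4. It was above background on 2 of 4 stage 4 arrays and on 0 of 4 stage 3 arrays. With its stage 3 values raised to the lowest signal above background, its mean was 1.22-fold higher at stage 4 under this background correction. This is no strict lower bound, since not all stage 4 arrays were above background, and again it does not allow for the spread between males. The fitted difference was 0.54 ± 0.21 (SE), with an interval of 0.03 to 1.04 and a limma adjusted p of 0.994. The fold of so dim a clone followed the background correction, from 0.19 with no correction to 1.50 with plain subtraction on the log2 scale. It was 0.54 without the averaged stage 4 male (limma adjusted p = 0.791) and 0.47 without stage 3 replicate 4 (limma adjusted p = 0.716).

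Clone Myt01-012H11 was above background on 4 of 4 stage 4 arrays and on 1 of 4 stage 3 arrays. Stage 4 males had 7.12, 7.25 and 7.22 in replicate 1, the averaged male and replicate 3, and stage 3 males had 6.21, 6.82, 6.94 and 6.83 in replicates 1 to 4. The stage 4 males lay close together above all stage 3 males, of which replicate 1 was the lowest. The fitted difference was 0.52 ± 0.19 (SE), or 1.44-fold higher at stage 4, with an interval of 0.05 to 1.00 and a limma adjusted p of 0.994. It was 0.23 with no background correction, 1.02 with plain subtraction and 0.32 without stage 3 replicate 1. Without the averaged stage 4 male it was 0.59 (limma adjusted p = 0.788), and without stage 3 replicate 4 it was 0.54 (limma adjusted p = 0.707). Females of the same arrays had a difference of 0.44 ± 0.23 (SE, limma adjusted p = 0.937), and the male change minus the female change was 0.09 ± 0.12 (SE, limma adjusted p = 0.939).

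**Figure D4:**
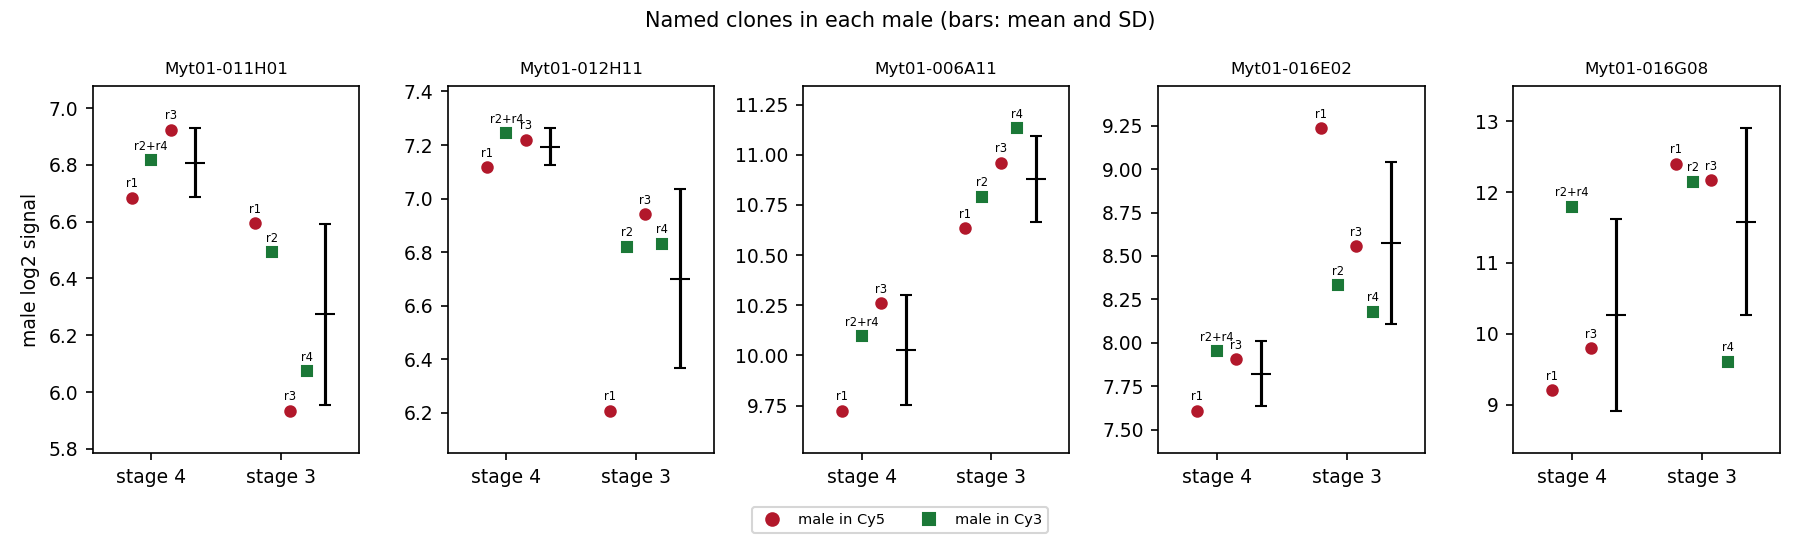
Male log2 signal of 5 clones in each of 3 stage 4 males and 4 stage 3 males (circles Cy5, squares Cy3; r, replicate), with mean and SD beside the points; each panel has its own vertical scale. The stages do not overlap for the first 4 clones, none of which passed the test, and overlap for Myt01-016G08.

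Males of 1 stage could differ by more than any fitted difference between the stages. Among the clones above background on all 8 arrays, Myt01-016G08 had the largest SD over the 7 males (1.41), and was chosen after its values were seen. Stage 4 males had 9.21, 11.8 and 9.80 in replicate 1, the averaged male and replicate 3, and stage 3 males had 12.4, 12.1, 12.2 and 9.61 in replicates 1 to 4. The averaged stage 4 male lay with 3 of the stage 3 males, and stage 3 replicate 4 lay with the other stage 4 males. The fitted difference was -1.30 ± 0.96 (SE), with an interval of -3.65 to 1.05 and a limma adjusted p of 0.994. It was -2.78 within Cy5 males and 0.92 within Cy3 males. Without the averaged stage 4 male the difference was the one within Cy5 males, -2.78 (limma adjusted p = 0.716). Without stage 3 replicate 4 it was -1.97 (limma adjusted p = 0.641). Without stage 4 replicate 1 it was -0.78. Its spots lay at most 0.745 log2 units apart on any of these arrays.

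In females the order of the arrays for Myt01-016G08 was nearly turned round. Females had 10.5, 7.19 and 9.99 at stage 4, in replicate 1, the averaged replicate and replicate 3, and 7.21, 9.04, 7.13 and 9.93 at stage 3. The arrays with a low male signal were those with the highest female signal. The male change minus the female change was -2.24 ± 2.04 (SE, limma adjusted p = 0.939).

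The 20 clones that varied most between males, among those above background on all 8 arrays, had SDs of 0.838 to 1.41 over the 7 males, against a median SD of 0.436 for the 397 clones. This choice used the male values, which are therefore a description. The stages overlapped for all 20 clones, whose fitted differences ran from -1.30 to 1.09. Relative to each clone's mean, the median deviation was 0.66 in stage 4 replicate 1, -0.79 in the averaged stage 4 male and 0.45 in stage 4 replicate 3. It was -0.43, -0.68, 0.18 and 0.38 in stage 3 replicates 1 to 4. Stage 4 replicates 1 and 3 thus lay above most clones' means, in 13 and 12 of the 20, and the averaged stage 4 male above 6. Stage 3 replicate 4 held the highest value for 7 of the 20 clones.

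**Figure D5:**
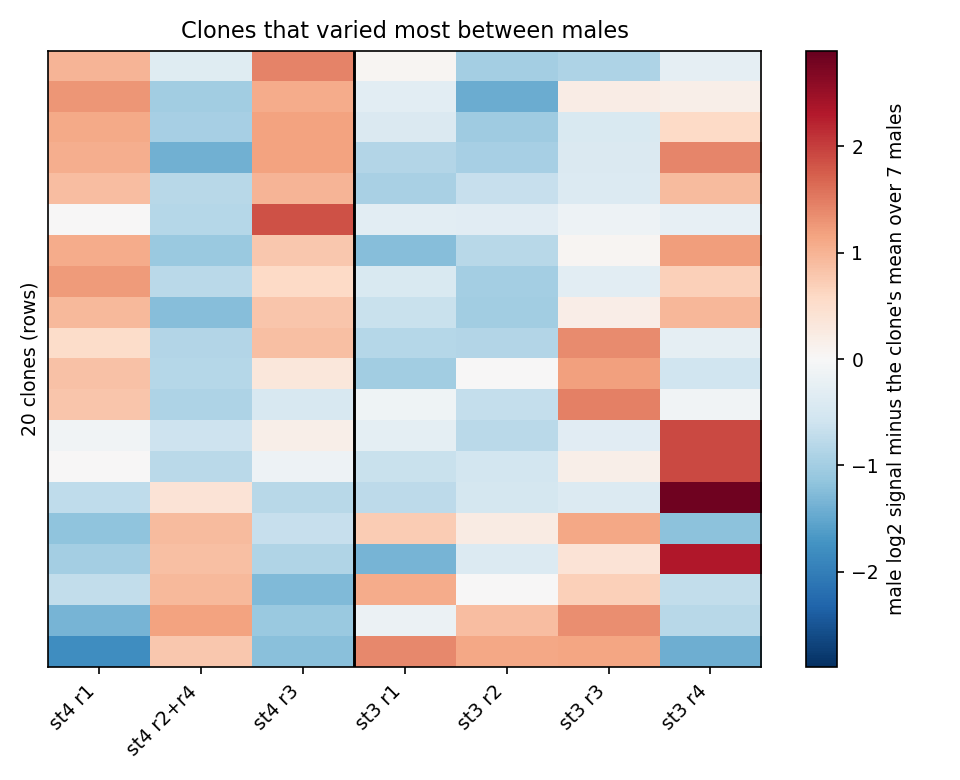
Male log2 signal minus the clone's mean over 7 males (red above, blue below) for the 20 clones with the largest SD among those above background on all 8 arrays, in rows ordered by stage 4 replicates 1 and 3; the black line divides stage 4 males from stage 3 males. The averaged stage 4 male has a median deviation of -0.79, whereas stage 4 replicates 1 and 3 have 0.66 and 0.45.

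Some clones stood over 2-fold above all other males in a single male. Stage 4 replicate 1, the averaged stage 4 male and stage 4 replicate 3 had 7, 10 and 5 such clones, and stage 3 replicates 1 to 4 had 4, 3, 11 and 55. For 43 of the 55 clones of stage 3 replicate 4 the spots lay over 1 log2 unit apart on the array of stage 3 replicate 4, against 165 of all clones (8.59%) on that array and 10 to 64 on the other arrays. In 18 of the 55 the female of the same array also stood over 2-fold above all other females, against 24 of all 1920 clones on that array. The same held for 6 of 7, 5 of 10 and 4 of 5 such clones in stage 4 replicate 1, the averaged male and replicate 3. In stage 3 replicates 1 to 3 it held for 2 of 4, 0 of 3 and 6 of 11.

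Males and females on the same arrays were compared in their change from stage to stage through the log2 ratio within each array, which does not depend on the scaling between arrays. At an adjusted p under 0.05, 0 of 1920 clones changed differently in the sexes (0%, smallest limma adjusted p = 0.939), and 47 (2.45%) had an unadjusted p under 0.05. The male change minus the female change had a median of -0.02, and its 95% interval lay within 2-fold for 1556 clones. In the females alone, 0 clones were called between the stages (0%, smallest limma adjusted p = 0.937) and 52 (2.71%) had an unadjusted p under 0.05. Without the averaged stage 4 replicate 0 clones were called in either test. There 434 of 1920 clones in the difference between the sexes and 274 of 1920 in females had an unadjusted p under 0.05. If no clone differed, 96 would be expected in each test. The smallest limma adjusted p were 0.0698 and 0.0806. Without stage 3 replicate 4 both tests also called 0 clones, with 139 and 168 of 1920 clones at an unadjusted p under 0.05. The smallest limma adjusted p were then 0.533 and 0.336. The part of these replicates and of the dye in these counts was not tested.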

How the data were processed

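Dual-colour slides were scanned by the authors with a ChipReader, and the images were read with GenePix. The deposited scanner files hold spot and local background intensity per channel, without normalisation. The deposited table of processed values, made by the authors, holds log2 ratios of female over male (r = 0.930 to 1.00 with the scanner ratios, medians between -0.0092 and 0.0110) and served as an alternative. With limma 3.58.1 (R 4.3.3) the mean foreground and median background were corrected by normexp (offset 50). Ratios were normalised by loess, with 608 blank and 112 alignment spots at weight 0, and mean signals by Aquantile over the 8 arrays. The male log2 signal was taken from the channel in the labels. A model with stage and dye was fitted to all 1920 clones with eBayes (4 residual degrees of freedom, two-sided, Benjamini-Hochberg adjustment). No clone was left out. Above background meant 2 background SDs. The fold of a clone below background throughout the dim stage sets the brighter stage against that stage. Each array's dim value is raised, where needed, to the lowest signal above background there. This fold is open to dye bias, and is no strict lower bound where the brighter stage has arrays not above background. Named clones were at most 2 per direction with groups that do not overlap, filled from an unadjusted p under 0.05 and ordered by size. The members, lists and rules were chosen with earlier results of these data known. Gene lists and cell markers were not run, since clones are not paired with genes here. The fit was tested on simulated data.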

Additional observations from a re-analysis of the deposited data

Results flagged for a closer look

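In groups of 4 stage 3 arrays, the male signal of 5 clones, their female signal and 4 measures of array quality were examined for a value far from the other 3 (its gap to the nearest value, as a share of the range, was above Dixon's 95% critical value). Of 14 groups, 2 held such a value. Chance gives about 1 in 20, but the 5 clones were chosen from these same male values, so that this rate is no measure for them. Clone Myt01-016G08 read 9.6051 in the male of stage 3 replicate 4, against 12.1 to 12.4 in the other stage 3 males. Clone Myt01-012H11 read 6.2073 in the male of stage 3 replicate 1, against 6.82 to 6.94 in the others. Over all clones, 182 (9.48%) had such a value in a stage 3 male, and 96 of these were in replicate 4, against 47, 19 and 20 in replicates 1, 2 and 3.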

How the results depend on the processing

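The count of 0 clones called between stage 4 and stage 3 males held under all 23 alternatives, with a smallest limma adjusted p of 0.296 to 1.00 and 14 to 135 clones at an unadjusted p under 0.05. The 14 were of the 833 clones above background in the male channel in at least 3 replicates, not of all 1920. The 135 came without stage 3 replicate 4 and again with array weights. The number at an unadjusted p under 0.05 was 74 without stage 3 replicate 1, 16 without stage 4 replicate 1 and 89 with stage 4 replicates 2 and 4 kept apart. The counts of 0 for the difference between the sexes (20 alternatives, 6 to 605 at an unadjusted p under 0.05) and for females (9 alternatives, 19 to 274) also held. The 6 came from the same 833 clones, and the 605 from array weights, whose estimation stopped before its tolerance. The median difference of all clones was 0.0021 with median scaling between arrays, -0.0045 with quantile normalisation and -0.023 over the 833 clones above background in at least 3 replicates. With 1 male left out it ran from -0.0238 to -0.0091. The 5 named clones kept their sign under every alternative run. Those other than Myt01-016G08 were chosen because their stages do not overlap in these values, so that their sign could hardly turn. Myt01-016G08 had a difference of -2.78 within Cy5 males and 0.92 within Cy3 males. Clones whose stages do not overlap numbered 116 to 239 with 1 male left out, since fewer males overlap less. It was 239 without the averaged stage 4 male and 219 without stage 3 replicate 4. Intervals within 2-fold numbered 1210 to 1565 with 1 male left out, and 114 to 235 among clones above background on all 8 arrays. The alternatives for the intervals, the overlap and the females were chosen after seeing the data. The replicate numbers share a number only: deviations of same-numbered males correlated at r = -0.18, 0.23 and -0.10 for numbers 1, 2 and 3, and 1 of 3 stage 4 males was closest to its own number. With a replicate block in place of the dye, 0 clones were called in males, and 110 had an unadjusted p under 0.05. The averaged male counted as number 2 there, so that stage 3 replicate 4 stood alone in its block. It did not enter the difference, and the count to set beside 110 is the 135 without that replicate. Counts of arrays and dim signal limit all values: 717 clones were above background on no male array.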
